A study of Mus musculus and Homo sapiens with 8 samples.

Results

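The T cell receptor complex and its signalling machinery were followed through 36 listed genes on 5 Illumina bead arrays of mouse thymus RNA. The genes were listed by name, from the receptor's signalling chains to the enzymes, adaptors and transcription factors that act downstream. Earlier results of these data were known when the list was made. Of the 36, 35 had a row among the 30854 rows of the deposited mouse table. Themis was listed there by a former name, and no row was found for Cd5, which is not analysed here. A gene counted as detected with a detection p-value under 0.01 on at least 1 of the 5 arrays, which 27 of the 35 genes and 13089 of all rows met. All animals were 2.5-week-old CD-1 mice. Thymi came from TRAF6 null mice given 15 Gy of ionising radiation (2 arrays), from wild-type mice given the same 15 Gy (2 arrays), and from unirradiated wild-type mice (1 array), and both irradiated groups were taken 10 h into treatment. TRAF6 is a ubiquitin ligase and adaptor that carries signals from Toll-like, interleukin-1 and tumour necrosis factor family receptors. The labels do not give the sex of the animals, how the null allele was made, or whether thymi were pooled, and an unirradiated TRAF6 null thymus is not analysed here. Whether each array of a pair stands for its own animal is not stated either, so the p-values rest on a spread between arrays that could be technical.

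A T cell recognises antigen with receptor chains that have almost no intracellular portion of their own. They depend on the CD3 chains and on the zeta chain, encoded by Cd247, whose tails carry the tyrosine motifs that the kinase LCK phosphorylates. ZAP-70 binds the phosphorylated motifs and in turn phosphorylates the adaptors LAT and SLP-76, from which calcium, Ras and NF-kappaB signals start. In the thymus this machinery is assembled in steps: the pre-T cell receptor with its invariant chain Ptcra comes first, then the receptor proper on cells that carry both CD4 and CD8, and its signal strength decides which cells survive selection. Immature thymocytes are among the most radiation-sensitive cells of the body.

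Promoter sequences are shown for 4 of these genes, because Cd3d and Cd3g lie next to each other on opposite strands, and because Cd247 and Trat1 were the members most raised in TRAF6 null over wild-type thymi after irradiation. Each window is 300 bases long, from 250 before to 50 after the start that RefSeq annotates on GRCm38.p6, written 5′ to 3′ on the strand of the gene. Capitals mark matches, on either strand, to 4 short motifs: TGTGGT for RUNX factors, GGAAGT for ETS factors, the E-box CAGNTG, and CTTTGA for TCF and LEF factors.
Cd3d, chr9:44981536-44981835, plus strand: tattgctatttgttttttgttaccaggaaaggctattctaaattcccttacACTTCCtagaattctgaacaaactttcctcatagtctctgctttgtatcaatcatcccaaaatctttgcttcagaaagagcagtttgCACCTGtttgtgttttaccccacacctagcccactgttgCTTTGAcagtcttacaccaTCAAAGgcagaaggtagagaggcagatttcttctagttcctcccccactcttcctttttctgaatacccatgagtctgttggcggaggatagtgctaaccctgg
Cd3g, chr9:44980382-44980681, minus strand: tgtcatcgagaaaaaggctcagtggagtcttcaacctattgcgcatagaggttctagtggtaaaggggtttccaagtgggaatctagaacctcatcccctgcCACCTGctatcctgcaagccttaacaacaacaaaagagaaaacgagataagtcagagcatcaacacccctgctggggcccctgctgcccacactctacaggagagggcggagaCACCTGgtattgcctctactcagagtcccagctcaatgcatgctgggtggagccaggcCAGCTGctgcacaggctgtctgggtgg
Cd247, chr1:165788431-165788730, plus strand: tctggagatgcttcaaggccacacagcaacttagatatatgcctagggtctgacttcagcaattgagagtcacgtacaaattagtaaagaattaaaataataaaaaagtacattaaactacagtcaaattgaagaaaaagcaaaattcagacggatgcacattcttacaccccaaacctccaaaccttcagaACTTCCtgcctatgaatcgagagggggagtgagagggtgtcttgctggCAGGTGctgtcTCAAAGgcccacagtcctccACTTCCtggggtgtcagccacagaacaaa
Trat1, chr16:48772013-48772312, minus strand: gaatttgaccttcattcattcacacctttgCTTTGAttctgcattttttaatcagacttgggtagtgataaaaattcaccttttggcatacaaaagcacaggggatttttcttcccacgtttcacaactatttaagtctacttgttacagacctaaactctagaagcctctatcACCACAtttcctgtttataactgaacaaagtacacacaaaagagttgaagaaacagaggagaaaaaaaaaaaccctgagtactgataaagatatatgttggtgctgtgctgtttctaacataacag
In these windows no match overlapped another. The Cd3d window held 1 ETS match, 1 E-box and 2 TCF/LEF matches, while the Cd3g window held 3 E-boxes and none of the other 3 motifs. The Cd247 window held 2 ETS matches, 1 E-box and 1 TCF/LEF match, and the Trat1 window held 1 RUNX and 1 TCF/LEF match. RefSeq gave 36 windows for 28 of the 36 listed genes, some genes having several starts. Among those 36 windows, 66.7% held an E-box, 41.7% an ETS match, 25% a TCF/LEF match and 19.4% a RUNX match. Over all 32851 windows of the table the shares were 51.4% for the E-box, 23.8% for ETS, 16% for TCF/LEF and 16.8% for RUNX. In the 14 windows of 11 genes that were lower after irradiation in wild type, described next, the shares were 57.1%, 35.7%, 28.6% and 14.3% in that order. These matches are a description of the letters in the windows, and binding was not measured.

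Across tested rows the 2 TRAF6 null arrays correlated at 0.97 (Pearson's r of log2 signals over genes, which are not independent replicates), the irradiated wild-type arrays at 0.99, and arrays of different groups at 0.87 to 0.90. Rows for Cd3e, Rag1 and Dntt, which mark thymocytes, were detected. Between 9493 and 11177 rows per array were detected, with a median of 41 to 43 beads per row, and the number of arrays limits the precision. The Traf6 row did not check the label: its normalized log2 signal was 9.04 and 8.62 on the TRAF6 null arrays, 7.68 and 7.74 in irradiated wild type and 8.11 on the unirradiated array. Its level was thus 2.18-fold higher in the libraries labelled TRAF6 null than in irradiated wild type (limma adjusted p = 0.0128), and where its probes lie relative to the deletion is not given in the sources used here. Sex-linked genes also differed between arrays. Xist, transcribed from the inactive X chromosome, had log2 signals of 4.57 and 10.06 on the TRAF6 null arrays, 4.55 and 4.60 in irradiated wild type, and 10.89 on the unirradiated array. The Y-linked Kdm5d ran the opposite way, at 6.56 and 4.53 for TRAF6 null, 6.69 and 6.48 for irradiated wild type and 4.49 unirradiated. In wild type, sex and irradiation therefore cannot be told apart, and no listed gene lies on the X or Y chromosome. The spread shared by all comparisons takes in the TRAF6 null pair, whose 2 arrays differed in these genes.

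Of the 27 detected genes, 18 were detected on all 5 arrays, among them Cd3d, Cd3e, Cd3g, Cd247, Lck, Zap70 and Cd8b1. No detected gene passed on the unirradiated array alone. The 8 undetected genes were Cd8a, Fyn, Lcp2, Plcg1, Ptpn22, Cblb, Malt1 and Nfatc2. Detection p-values in this table appear to be averaged over a gene's probes, in which case a gene with 1 bright probe could fail. Of the 8, 5 had a signal above the 99th percentile of the negative controls on at least 1 array, and Cd8a, Nfatc2 and Plcg1 stayed below it on all 5. Closest to the threshold were Prkcq and Grap2 inside it, with lowest detection p-values of 0.00496 and 0.00588, and Malt1 and Lcp2 outside it, at 0.0181 and 0.0329. Cd8b1 had a further entry under its former name CD8B, which is given beside the first.

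**Figure D1:**
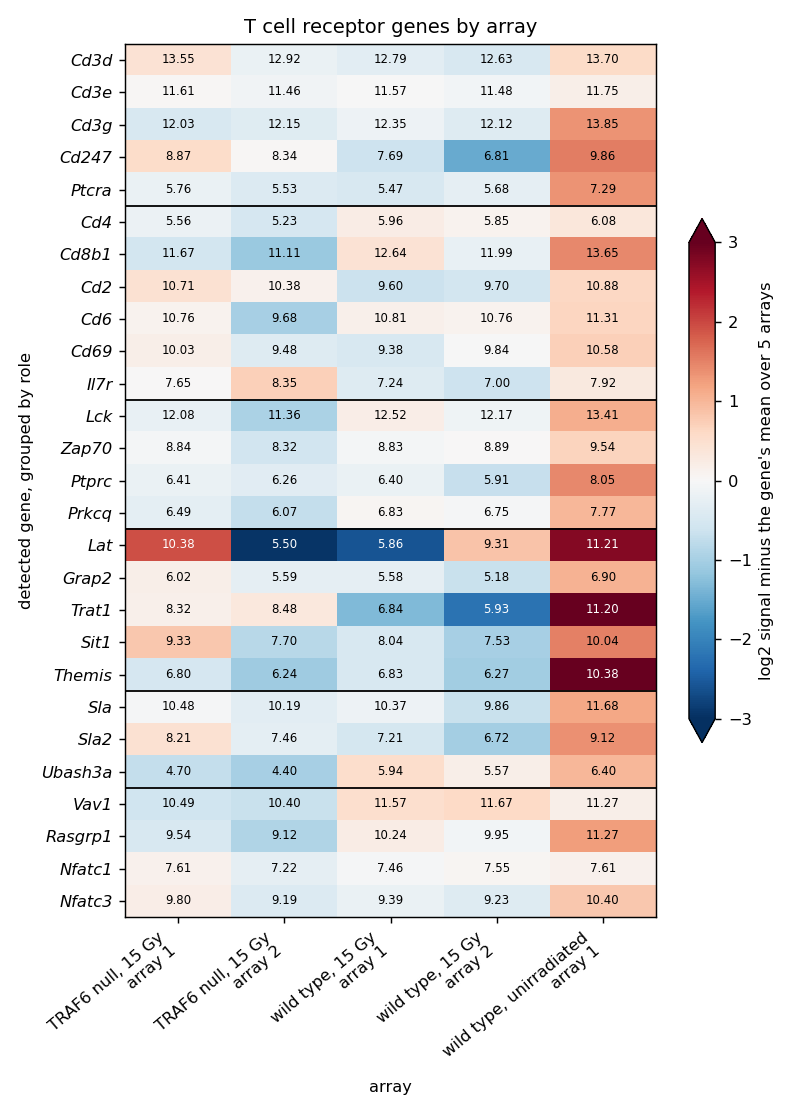
Normalized log2 signal of the 27 detected genes (rows, grouped by role) on the 5 arrays (columns); numbers are the log2 signals and colour is the difference from the gene's mean over the 5 arrays. The unirradiated array is the highest for most genes, and Lat splits the arrays of both irradiated groups, at 10.38 and 5.50 on the TRAF6 null arrays and 5.86 and 9.31 on the irradiated wild-type arrays.

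Irradiation of wild-type mice was compared first, since it asks what the dose did to the receptor machinery when TRAF6 was present. Many of the receptor genes were lower in the irradiated thymi: 13 of the 27 detected genes passed the test as lower and 0 as higher. Each gene was counted by its first entry, and the further entry of Cd8b1 passed as 1.61-fold higher (limma adjusted p = 0.0499). The fall was steepest for Trat1, an adaptor bound to the zeta chain, which was 28.1-fold lower, and for Themis, a thymocyte adaptor needed for positive selection, which was 14.3-fold lower. Cd247 was 6.07-fold lower, Sla2 4.46-fold, Ptprc 3.73-fold, Ptcra 3.30-fold and Cd3g 3.06-fold. The remaining 6, Sla, Grap2, Cd2, Rasgrp1, Nfatc3 and Prkcq, were between 2.96-fold and 1.97-fold lower. The folds of the dim genes Ptprc, Ptcra, Grap2 and Prkcq depended on the background correction, as given with each gene. Cd3e, Cd4 and Nfatc1 stood at the other end, with log2 differences of -0.22, -0.17 and -0.11 that did not pass.

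The test was limma's moderated test on log2 signals, two-sided, with Benjamini-Hochberg adjustment over all 13089 tested rows and a threshold of 0.05. Of those rows 17.9% were called lower and 17% higher, against 48.1% lower among the 27 detected genes. Because the genes were listed with earlier results of these data known, this contrast is a description and no independent test. The median log2 difference of the 27 was -1.18, beside 0.04 over all tested rows. Both irradiated arrays lay below the unirradiated array for 26 of the 27, a separation that 44.1% of all rows showed in that direction, and above it for Vav1 alone (47.2% of all rows in that direction). By Nfatc1's -0.11 and Vav1's 0.35 some of these separations were small. The unirradiated group was 1 array, assumed to vary like the others. Without either irradiated wild-type array no gene of the 27 and no row at all passed (0 rows, with 4192 rows at an unadjusted p under 0.05 without array 1 and 3858 without array 2), and without either TRAF6 null array 21 of the 27 were lower. In bulk RNA, fewer cells of a type and less RNA per cell cannot be told apart.

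The TRAF6 null and wild-type thymi, both irradiated, were compared to ask whether the receptor genes depended on TRAF6 after the dose. For 21 of the 27 genes, each taken by its first entry, no difference passed the test. Cd8b1 is among these, but its further entry was 3.15-fold lower in TRAF6 null (limma adjusted p = 0.00394). Trat1 was 4.04-fold higher in TRAF6 null thymi, Cd247 2.55-fold and Cd2 1.86-fold. Vav1, a guanine nucleotide exchange factor and adaptor, was 2.26-fold lower, and Rasgrp1, an exchange factor for Ras, 1.70-fold lower. Ubash3a, a phosphatase family member that damps receptor signalling, was at least 1.19-fold lower, since on both TRAF6 null arrays its signal was not well above background.

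Thus 3 of the 27 genes passed as lower and 3 as higher (limma, Benjamini-Hochberg adjusted p under 0.05), or 11.1% in each direction, where 21.2% of all rows were called lower and 19.4% higher. Both shares were below those of the whole table, and the median of the 27 was 0.07, beside -0.02 over all rows. The groups did not overlap for 8 genes in the lower direction (38.7% of all rows) and 7 in the higher direction (37% of all rows), and they overlapped for 12. Which array was left out changed the calls. Without TRAF6 null array 1, 9 were lower and 3 higher, and without TRAF6 null array 2, 2 were lower and 6 higher. Without irradiated wild-type array 1, 0 were lower and 1 was higher, and without array 2, 0 passed in either direction. The first of these leaves out the TRAF6 null array with low Xist and the second leaves a contrast between arrays that all had low Xist.

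Irradiated TRAF6 null thymi were also set against the unirradiated wild-type array, a comparison that changes genotype and dose together. Again 13 of the 27 genes were lower and 0 higher (limma adjusted p under 0.05), where 15% of all rows were called lower and 12.5% higher. Themis was 14.6-fold lower and Trat1 6.95-fold lower. Cd8b1 was 4.78-fold lower by its first entry, Rasgrp1 3.86-fold, Cd3g 3.40-fold, Ptprc 3.28-fold, Lck 3.22-fold and Ptcra 3.14-fold. The further entry of Cd8b1 was 1.96-fold lower (adjusted p = 0.0251). Prkcq, Sla, Grap2, Vav1 and, as at least 1.87-fold, Ubash3a completed the 13. The median of the 27 was -1.29, beside -0.04 over all rows. Both TRAF6 null arrays lay below the unirradiated array for 26 genes (44.5% of all rows did so), above it for none (39.6% of all rows), and on both sides of it for Il7r. Without TRAF6 null array 1, 21 were lower, without irradiated wild-type array 1 or 2, which enter only through the shared spread, 5 and 8 were. This comparison shares the unirradiated array with the first and the TRAF6 null arrays with the second, and the first 2 share the irradiated wild-type arrays with opposite sign, so no count of shared genes is read from them.

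**Figure D2:**
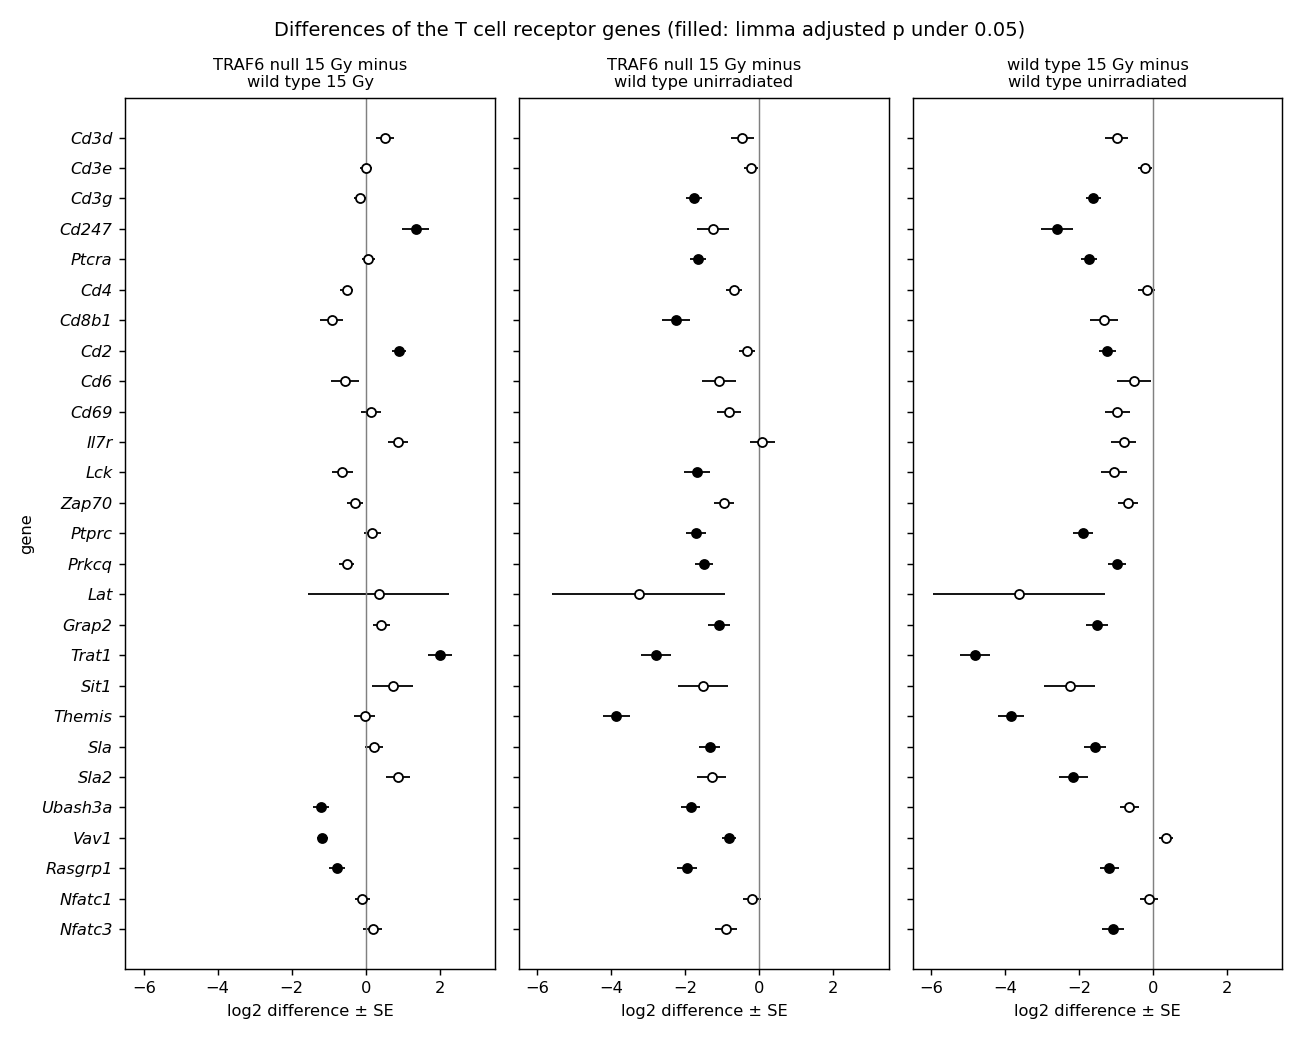
Log2 difference ± standard error of the 27 detected genes in the 3 comparisons, with filled circles for a limma adjusted p under 0.05. In the right-hand panel every gene but Vav1 (0.35) lies left of 0, while in the left-hand panel the genes lie on both sides, from -1.20 for Ubash3a, a fitted value that is no bound, to 2.01 for Trat1.

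Of the 5 signalling chains of the receptor, 3 were lower in irradiated than in unirradiated wild type, and 1 was higher in TRAF6 null than in irradiated wild type. Of all rows 17.9% were lower in wild type and 19.4% higher between the genotypes, so 1 of 5 is near the latter share. Cd3g, the gamma chain, had log2 signals of 12.03 and 12.15 on the TRAF6 null arrays, 12.35 and 12.12 in irradiated wild type and 13.85 on the unirradiated array. The 4 irradiated arrays sat within a narrow band well below the unirradiated one, and the log2 difference in wild type was -1.62 ± 0.21 (SE, limma adjusted p = 0.00876). Cd3d, the delta chain encoded next to it, had 13.55 and 12.92 on the TRAF6 null arrays, 12.79 and 12.63 in irradiated wild type and 13.70 unirradiated. Its TRAF6 null values lay between the other groups and reached almost to the unirradiated level on array 1. The wild-type difference of Cd3d, -0.98 ± 0.31, missed the threshold (adjusted p = 0.0625), as did 0.52 ± 0.25 between the genotypes (adjusted p = 0.156). Within each array, the log2 signal of Cd3d minus that of Cd3g was 1.52 and 0.78 for TRAF6 null, 0.44 and 0.50 for irradiated wild type and -0.16 for the unirradiated array. The gap between the TRAF6 null arrays themselves was wide, and whether Cd3d and Cd3g changed by different amounts was not tested.

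Cd3e, the epsilon chain, was nearly flat, at 11.61 and 11.46 for TRAF6 null, 11.57 and 11.48 for irradiated wild type and 11.75 unirradiated. None of its 3 differences passed, and the wild-type one was -0.22 ± 0.19 (adjusted p = 0.407). Cd247, the zeta chain, was 8.87 and 8.34 for TRAF6 null, 7.69 and 6.81 for irradiated wild type and 9.86 unirradiated. The 3 groups did not overlap, with TRAF6 null in the middle. Cd247 differed by 1.35 ± 0.36 between the genotypes (adjusted p = 0.0367) and by -2.60 ± 0.44 in wild type (adjusted p = 0.0139). The genotype call of Cd247 was not firm: it was lost without TRAF6 null array 1 (1.08, adjusted p = 0.0857), without either irradiated wild-type array, with median scaling in place of quantile normalization (1.09, adjusted p = 0.0624), with limma's own inference of the negative controls (0.53, adjusted p = 0.12), on the authors' series matrix (0.60, adjusted p = 0.0962) and with no detection filter (adjusted p = 0.0970). It passed in 7 of the 14 alternatives. Ptcra, the chain of the pre-T cell receptor, was 5.76 and 5.53 for TRAF6 null, 5.47 and 5.68 for irradiated wild type and 7.29 unirradiated. The irradiated groups overlapped for Ptcra and both were lower than the unirradiated array, by -1.65 ± 0.22 for TRAF6 null and -1.72 ± 0.22 for wild type (adjusted p = 0.0113 and 0.00852). The size of both Ptcra differences depended on the processing: with limma's own inference of the negative controls they were -0.21 for TRAF6 null and -0.21 for wild type, and on the series matrix -0.80 and -0.60.

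Among the co-receptors, the 2 entries of Cd8b1, which encodes the beta chain of CD8, disagreed. The first was 11.67 and 11.11 for TRAF6 null, 12.64 and 11.99 for irradiated wild type and 13.65 unirradiated. The further entry was 9.09 and 9.22 for TRAF6 null, 10.74 and 10.88 for irradiated wild type and 10.13 unirradiated. In both entries the TRAF6 null arrays were the lowest, with a genotype difference of -0.92 ± 0.31 in the first (adjusted p = 0.0689) and -1.66 ± 0.16 in the further one (adjusted p = 0.00394). Between irradiated and unirradiated wild type the first differed by -1.33 ± 0.38, which did not pass (adjusted p = 0.0501), and the further one by 0.68 ± 0.19, which did (adjusted p = 0.0499). The signs were opposite, and both p-values lay at the threshold. The log2 signal of the first minus that of the further entry was 2.58 and 1.89 for TRAF6 null, 1.90 and 1.11 for irradiated wild type and 3.52 unirradiated. Which probes each entry averages is not given in the sources used here, and no direction for Cd8b1 in irradiated wild type is drawn from them.

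Cd8a, which encodes the alpha chain of CD8, had signals between 4.46 and 4.58 on all arrays, not well above background on any of them. That holds for its row only, since CD8 beta pairs with CD8 alpha on thymocytes. Cd4 was dim, at 5.56 and 5.23 for TRAF6 null, 5.96 and 5.85 for irradiated wild type and 6.08 unirradiated, and was above background on 1 of the 2 TRAF6 null arrays. Its groups did not overlap, but the differences of -0.51 ± 0.18 between the genotypes and -0.17 ± 0.22 in wild type did not pass (adjusted p = 0.0797 and 0.583). Cd2, an adhesion molecule, was 10.71 and 10.38 for TRAF6 null, 9.60 and 9.70 for irradiated wild type and 10.88 unirradiated. Irradiated wild type stood apart as low, and TRAF6 null lay close to the unirradiated array. Cd2 was higher by 0.90 ± 0.18 in TRAF6 null (adjusted p = 0.0180) and differed by -1.23 ± 0.22 in wild type (adjusted p = 0.0163).

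Cd6, a surface regulator, Cd69, an early activation marker, and Il7r, the interleukin-7 receptor chain that supports survival outside the double-positive stage, passed in no comparison. Il7r was 7.65 and 8.35 for TRAF6 null, averaged 7.12 ± 0.17 in irradiated wild type (SD, n = 2) and was 7.92 unirradiated. The genotypes did not overlap, with a difference of 0.88 ± 0.28 (adjusted p = 0.0579). Cd69 was 10.03 and 9.48 for TRAF6 null, 9.38 and 9.84 for irradiated wild type and 10.58 unirradiated. Cd6 was 10.76 and 9.68 for TRAF6 null, 10.81 and 10.76 for irradiated wild type and 11.31 unirradiated. It had a gap of 1.08 between its 2 TRAF6 null arrays, which 3.89% of tested rows exceeded.

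**Figure D3:**
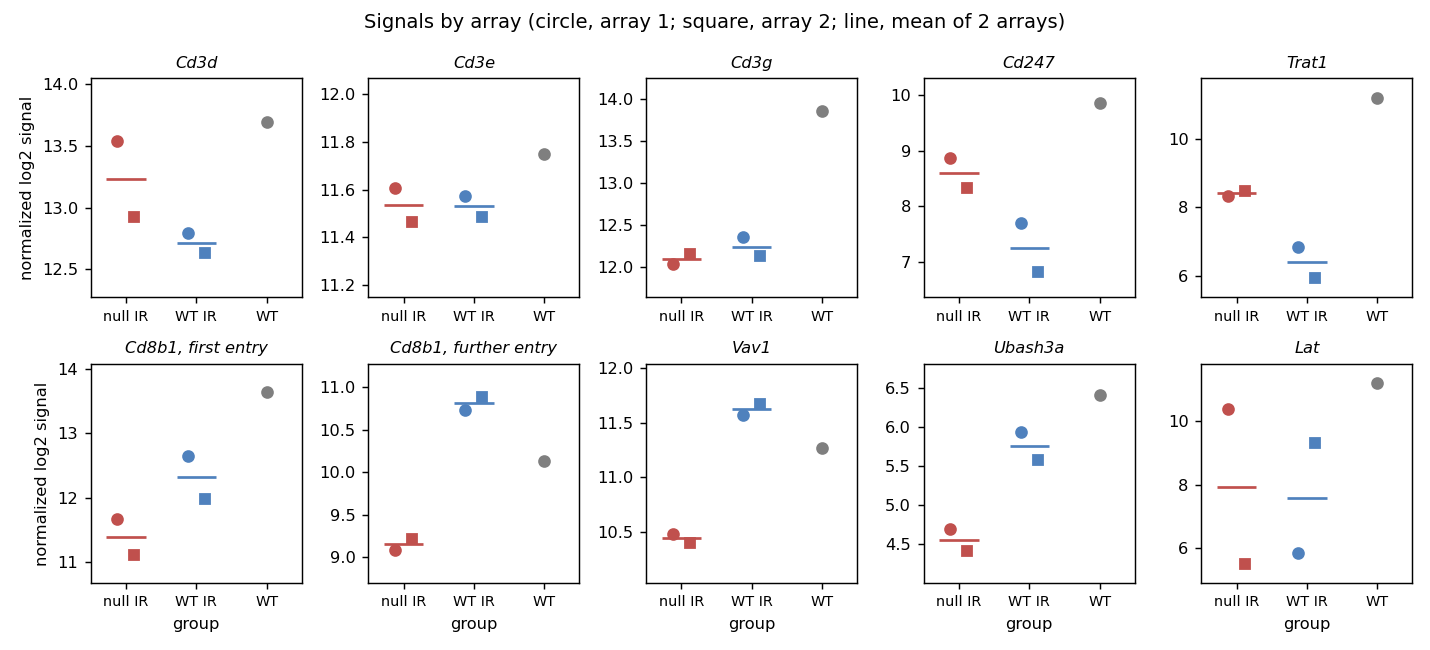
Normalized log2 signal by array for 9 genes, with both entries of Cd8b1, each on its own scale; circles are array 1, squares array 2 and lines the mean of 2 arrays, with irradiated TRAF6 null, irradiated wild type and unirradiated wild type from left to right. Cd247 and Trat1 place TRAF6 null between the wild-type groups, Vav1 and Ubash3a place it below both, and the Cd8b1 entries disagree on the irradiated wild type.

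Of the kinases and phosphatases, 4 of the 6 were detected, and 0 of them passed between the genotypes in either direction (21.2% of all rows were lower and 19.4% higher). Lck, the kinase that phosphorylates the receptor's tyrosine motifs, was 12.08 and 11.36 for TRAF6 null, 12.52 and 12.17 for irradiated wild type and 13.41 unirradiated. The groups descended in the reverse of that order without overlap, and the fall of TRAF6 null against the unirradiated array passed (-1.69 ± 0.36, adjusted p = 0.0290), while the wild-type difference did not (-1.06 ± 0.36, adjusted p = 0.0756). The difference between those results is the genotype contrast, -0.63 ± 0.29, which did not pass (adjusted p = 0.146). The call of Lck in TRAF6 null against the unirradiated array passed in 8 of 13 alternatives and was lost, for one, with limma's own inference of the negative controls (adjusted p = 0.105). Zap70 moved less, at 8.84 and 8.32 for TRAF6 null, 8.83 and 8.89 for irradiated wild type and 9.54 unirradiated, and passed nowhere. Ptprc, which encodes CD45, the phosphatase that keeps LCK ready, was 6.41 and 6.26 for TRAF6 null, 6.40 and 5.91 for irradiated wild type and 8.05 unirradiated. Both irradiated groups overlapped for Ptprc and lay below the unirradiated array, by -1.72 ± 0.27 for TRAF6 null and -1.90 ± 0.27 for wild type (adjusted p = 0.0150 and 0.0101). With limma's own inference of the negative controls the Ptprc differences were only -0.38 for TRAF6 null and -0.40 for wild type, and on the series matrix -1.13 and -0.89. Prkcq, the kinase PKC theta of the NF-kappaB branch, was 6.49 and 6.07 for TRAF6 null, 6.83 and 6.75 for irradiated wild type and 7.77 unirradiated, lower than unirradiated in TRAF6 null (adjusted p = 0.0166) and in irradiated wild type (adjusted p = 0.0356). Prkcq was detected on 1 array only, an irradiated wild-type one, and with limma's own inference its differences were -0.29 for TRAF6 null and -0.22 for wild type. The wild-type call of Prkcq was lost on the series matrix (-0.34, adjusted p = 0.0799) and with no detection filter.

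Fyn, a kinase related to LCK, was dim and undetected, at 4.88 and 5.59 for TRAF6 null, 5.51 and 5.59 for irradiated wild type and 5.69 unirradiated. Ptpn22, a phosphatase that restrains LCK and ZAP-70, was undetected by its detection p-value, yet its row was bright. It had 9.40 and 9.72 for TRAF6 null, 8.33 and 8.51 for irradiated wild type and 8.12 unirradiated, with both TRAF6 null arrays above all wild-type arrays. With no detection filter it passed as higher in TRAF6 null, by 1.14 against irradiated wild type and 1.44 against the unirradiated array (limma adjusted p = 0.0191 and 0.0266). Cblb, a ubiquitin ligase that limits receptor signalling, was 6.55 and 6.74 for TRAF6 null, 5.79 and 6.08 for irradiated wild type and 5.67 unirradiated, with unfiltered differences of 0.71 against irradiated wild type and 0.98 against the unirradiated array (adjusted p = 0.0472 and 0.0487). The detection rule had left both genes out, and across the alternatives run they were the only listed genes called higher in TRAF6 null than on the unirradiated array.

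The adaptors held the largest differences. Trat1 was 8.32 and 8.48 for TRAF6 null, 6.84 and 5.93 for irradiated wild type and 11.20 unirradiated. The 3 groups were far apart, with TRAF6 null between the wild-type groups. Trat1 differed by 2.01 ± 0.33 between the genotypes (adjusted p = 0.0104) and by -4.81 ± 0.40 in wild type (adjusted p = 0.00598). Without irradiated wild-type array 2, the dimmer of its pair, the genotype difference was 1.57 (adjusted p = 0.0574), and on the authors' series matrix, which keeps the background, it was 0.92. With limma's own inference of the negative controls it was 0.54. Themis was 6.80 and 6.24 for TRAF6 null, 6.83 and 6.27 for irradiated wild type and 10.38 unirradiated. The irradiated groups covered the same range, and the difference between them was -0.03 ± 0.29 (adjusted p = 0.939), beside -3.83 ± 0.35 in wild type and -3.86 ± 0.35 for TRAF6 null against the unirradiated array (adjusted p = 0.00664 and 0.00778). With limma's own inference the wild-type difference of Trat1 was -3.63 and that of Themis -2.64, and both passed. Whether Trat1 and Themis differed from each other in the genotype contrast was not tested. Grap2, the adaptor that joins LAT to SLP-76, was 6.02 and 5.59 for TRAF6 null, 5.58 and 5.18 for irradiated wild type and 6.90 unirradiated, with -1.51 ± 0.29 in wild type (adjusted p = 0.0189) and -1.09 ± 0.29 for TRAF6 null against the unirradiated array (adjusted p = 0.0499). Grap2 was above background on 1 of the 2 irradiated wild-type arrays. Its TRAF6 null call passed in only 4 of 12 alternatives, and with limma's own inference of the negative controls the differences were -0.12 for TRAF6 null and -0.15 for wild type, neither of which passed (adjusted p = 0.0992 and 0.0587). Sit1, a transmembrane adaptor, was 9.33 and 7.70 for TRAF6 null, 8.04 and 7.53 for irradiated wild type and 10.04 unirradiated, and passed nowhere. Lcp2, which encodes SLP-76, was undetected, at 7.48 to 7.93 for TRAF6 null, 7.69 to 7.72 for irradiated wild type and 8.09 unirradiated.

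Lat, the membrane scaffold of the pathway, stood apart from the other detected genes in that the arrays of each irradiated group split. Its deposited signals were 1296.5 and 130.4 on the TRAF6 null arrays, 156.6 and 733.3 in irradiated wild type and 2772.5 on the unirradiated array. Array 1 was the brighter for TRAF6 null and array 2 for wild type. After normalization the gap was 4.88 on the log2 scale, or 29.4-fold, for TRAF6 null and 10.9-fold the other way for wild type. The median gap of all tested rows was 0.26 in the TRAF6 null pair and 0.15 in the wild-type pair, only 2 of the 13089 rows had a wider gap than Lat in the TRAF6 null pair, and 3 in the wild-type pair. Lat was the 1 row with a gap above 3 in both pairs, where 22 rows passed 3 in the TRAF6 null pair and 6 in the wild-type pair. The next row by its smaller gap was Slc15a2, at 2.64. The beads did not differ to that extent: 39 to 46 beads stood behind each Lat signal and their standard error was 4.56% to 5.76% of it. No statement on the direction of Lat between the genotypes holds, with a difference of 0.35 ± 1.90 (limma adjusted p = 0.893) that ran from -2.09 to 2.78 over the alternatives. Both irradiated groups were below the unirradiated array on every array, by -3.27 ± 2.33 for TRAF6 null and -3.62 ± 2.33 for wild type, and neither passed (adjusted p = 0.340 and 0.275). Skap1, an adaptor of the same pathway that is not among the 36 and was picked out after its values were seen, also had 1 outlying array, at 8.22 and 8.04 for TRAF6 null, 8.13 and 5.02 for irradiated wild type and 6.26 unirradiated.

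**Figure D4:**
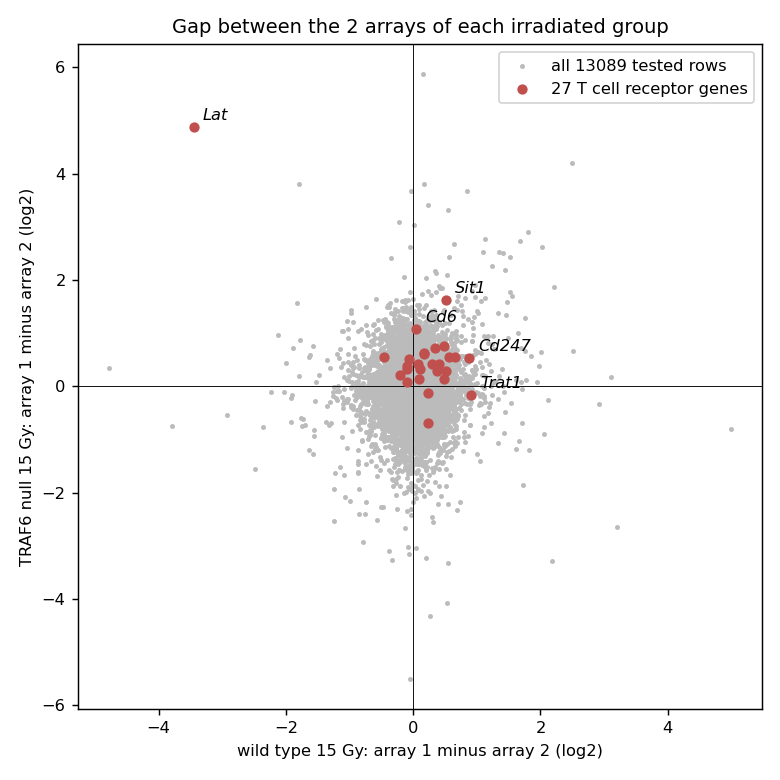
Log2 gap between array 1 and array 2 of the irradiated wild-type group (horizontal) and of the irradiated TRAF6 null group (vertical) for 13089 tested rows (grey) and the 27 detected genes (red). Lat lies alone at -3.45 and 4.88, while Sit1 (1.62 vertical) and Cd6 (1.08 vertical) are the next widest of the set in the TRAF6 null pair.

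Of the 4 genes that attenuate receptor signalling, 3 were detected. Sla and Sla2, adaptors that send receptor chains for degradation, were lower in irradiated wild type. Sla was 10.48 and 10.19 for TRAF6 null, 10.37 and 9.86 for irradiated wild type and 11.68 unirradiated, with overlapping irradiated groups and a wild-type difference of -1.57 ± 0.29 (adjusted p = 0.0175). Sla2 was 8.21 and 7.46 for TRAF6 null, 7.21 and 6.72 for irradiated wild type and 9.12 unirradiated, with -2.16 ± 0.39 in wild type (adjusted p = 0.0166). With limma's own inference of the negative controls the wild-type call of Sla was lost (-1.87, adjusted p = 0.0676) and the difference of Sla2 was -1.005. TRAF6 null lay above irradiated wild type for Sla2 without overlap, by 0.87 ± 0.32, which did not pass (adjusted p = 0.0869). Ubash3a was 4.70 and 4.40 for TRAF6 null, 5.94 and 5.57 for irradiated wild type and 6.40 unirradiated. It was above background on all wild-type arrays and on none for TRAF6 null, so its fitted difference of -1.20 ± 0.21 (adjusted p = 0.0123) is no bound and the fold is given as at least 1.19. When limma itself inferred the negative controls, the difference was -0.08 and did not pass (adjusted p = 0.115), nor did that against the unirradiated array (-0.13, adjusted p = 0.0836).

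Of the 7 exchange factors and effectors 4 were detected. Of these, 2, Vav1 and Rasgrp1, were lower in TRAF6 null than in irradiated wild type, where 21.2% of all rows were lower. Vav1 was 10.49 and 10.40 for TRAF6 null, 11.57 and 11.67 for irradiated wild type and 11.27 unirradiated. The arrays within each pair lay close together and TRAF6 null was below both wild-type groups, by -1.18 ± 0.15 against irradiated wild type (adjusted p = 0.00641) and by -0.82 ± 0.19 against the unirradiated array (adjusted p = 0.0335). In wild type Vav1 was, by first entries, the 1 detected gene with a positive difference. That difference, 0.35 ± 0.19, did not pass (adjusted p = 0.195). Rasgrp1 was 9.54 and 9.12 for TRAF6 null, 10.24 and 9.95 for irradiated wild type and 11.27 unirradiated. The groups did not overlap, and all 3 differences passed, at -0.77 ± 0.22 between the genotypes (adjusted p = 0.0447), -1.18 ± 0.27 in wild type (adjusted p = 0.0284) and -1.95 ± 0.27 for TRAF6 null against the unirradiated array (adjusted p = 0.0123). The genotype call of Rasgrp1 was lost without TRAF6 null array 2 (-0.55, adjusted p = 0.0762), without either irradiated wild-type array, with limma's own inference of the negative controls (adjusted p = 0.0900) and with no detection filter (adjusted p = 0.0813), and passed in 8 of 13 alternatives. Its wild-type call was lost with the same own inference (adjusted p = 0.0690) and with no detection filter. Nfatc3, a calcium-driven transcription factor, was 9.80 and 9.19 for TRAF6 null, 9.39 and 9.23 for irradiated wild type and 10.40 unirradiated, with -1.09 ± 0.30 in wild type (adjusted p = 0.0466), a call lost with limma's own inference (adjusted p = 0.102) and with no detection filter. Its relative Nfatc1 stayed between 7.22 and 7.61 on all 5 arrays and passed nowhere. Malt1, the protease of the NF-kappaB branch, was undetected at 5.77 to 6.23, and Nfatc2 and Plcg1, the phospholipase downstream of LAT, were not above background on any array.

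The antigen-binding chains themselves were read from rows named for T cell receptor variable, joining and constant segments, 29 rows in all, of which 19 were tested. Variable segments are close relatives, so these rows may share signal and are not independent of each other, and each thymus carries a mixture of rearrangements. Irradiated wild type was lower in 18 of the 19 rows and higher in 0, or 94.7% and 0%, beside 17.9% and 17% of all rows. TRGV7, TRGV5 and TCRG-V5 were above background on the unirradiated array only, at 6.54, 5.90 and 5.97. They could pass the detection rule only there, so their direction against that array, for TRAF6 null too, was fixed in advance. Their fitted differences, which enter the count of 18 and the medians, are no bounds. The median was -2.76, beside 0.04 over all rows, and the 1 row that did not pass was a gamma-chain row, TCRG-V4. That row was above background on TRAF6 null array 1 only. TRBV30 was 5.85 and 5.55 in irradiated wild type, against 9.13 unirradiated, and was 10.8-fold lower (limma adjusted p = 0.00768). TRBV6 was 8.40 and 7.74 in irradiated wild type, against 11.42 unirradiated, and was 10.2-fold lower. TRBV11 was 9.02 and 8.40 in irradiated wild type, against 11.91 unirradiated, and was 9.16-fold lower. The TCRB-J row was 10.2-fold lower. The summed normalized signal of the 29 rows was 22852 and 16933 for TRAF6 null, 13605.5 and 8678.7 for irradiated wild type and 48088 unirradiated. The brightest row, TCRB-V8.2, weighs heavily in this sum. Its log2 signals were 13.42 and 13.01 for TRAF6 null, 12.90 and 12.31 for irradiated wild type and 13.79 unirradiated.

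Between the genotypes 8 of the 19 rows were higher in TRAF6 null and 0 lower, or 42.1% and 0%, beside 19.4% and 21.2% of all rows. The median was 0.89, beside -0.02 over all rows. TRAV2 was 7.61 and 7.55 for TRAF6 null, 4.87 and 4.69 for irradiated wild type and 7.10 unirradiated. TRAV6D-3 was 7.61 and 7.54 for TRAF6 null, 5.15 and 4.97 for irradiated wild type and 7.83 unirradiated. On the irradiated wild-type arrays both alpha-chain rows were not well above background, so they were at least 5.22-fold and at least 5.20-fold higher in TRAF6 null (adjusted p = 0.00236 and 0.00253). TRBV30 and TRBV6 were 4.08-fold and 3.74-fold higher. Against the unirradiated array, TRAF6 null was lower in 12 rows and higher in 0, or 63.2% and 0%, beside 15% and 12.5% of all rows. The median was -1.45, beside -0.04 over all rows, and the TCRB-J difference was -2.81. The genotype count of 8 was 3 and 2 without irradiated wild-type array 1 and 2, and the wild-type count of 18 was 0 without either. The count of 12 was 3 and 5 without those arrays, and 8 and 15 without TRAF6 null array 2 and 1. The constant-region row TRAC was undetected on all arrays (lowest detection p-value 0.0171) and was not tested. Its dim signals were 5.74 and 5.15 for TRAF6 null, 4.80 and 4.93 for irradiated wild type and 5.04 unirradiated. They were above background on TRAF6 null array 1 only, so no direction is drawn from them.

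**Figure D5:**
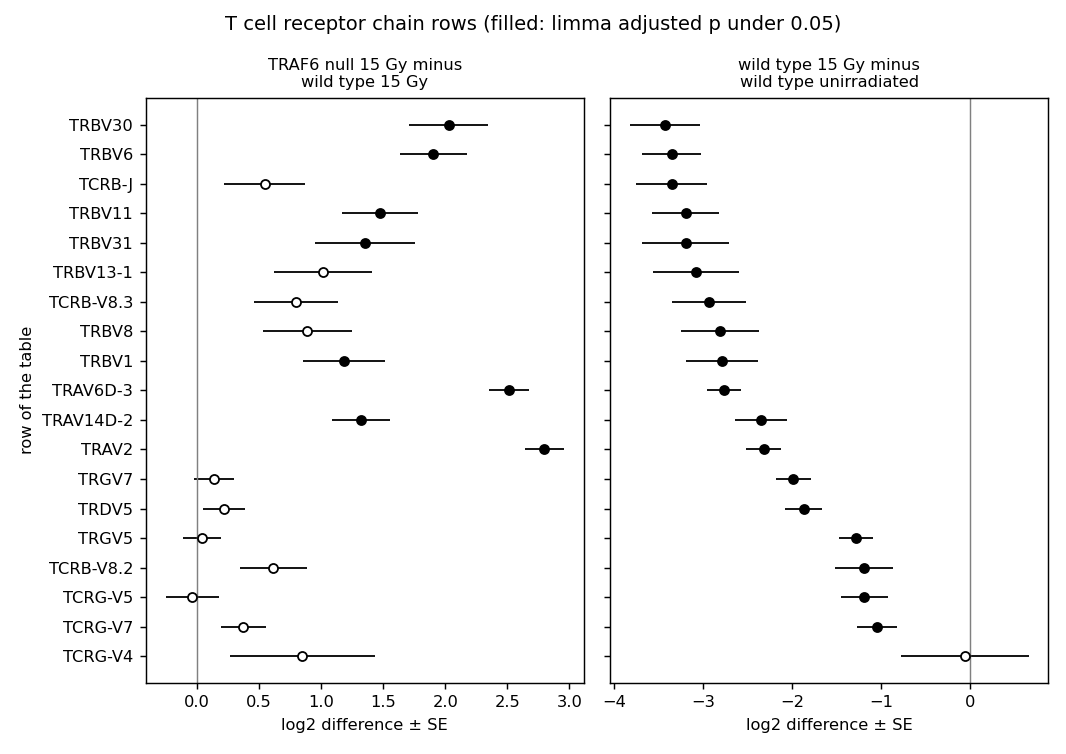
Log2 difference ± standard error of the 19 tested T cell receptor chain rows between irradiated TRAF6 null and irradiated wild type (left) and between irradiated and unirradiated wild type (right), filled for a limma adjusted p under 0.05. All rows but TCRG-V4 pass left of 0 in the right-hand panel, and the 8 filled rows of the left-hand panel lie right of 0. For rows with no irradiated wild-type array above background, such as TRAV2 and TRGV7, the fitted values are no bounds.

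A list of 36 further genes of the pathway, not among the 36 followed here, gave 28 tested rows. Irradiated wild type was lower in 6 and higher in 3, or 21.4% and 10.7%, beside 17.9% and 17% of all rows, with a median of -0.11, so the lower share was near that of the whole table. Tespa1, a thymocyte signalling protein, was 7.10-fold lower, the co-stimulatory receptor Cd28 5.48-fold lower and the kinase Tec 2.83-fold lower, while the calcium channel Orai1 was 2.70-fold higher. Between the genotypes 10 were lower and 4 higher, or 35.7% and 14.3%, beside 21.2% and 19.4% of all rows, with a median of -0.37. Cd28 was 4.21-fold higher in TRAF6 null, at a mean of 9.68 against 7.60 in irradiated wild type, and the adaptor Pag1 at least 1.97-fold higher. The phosphatase Ptpn6 was 2.75-fold lower. Against the unirradiated array TRAF6 null was lower in 9 and higher in 2, or 32.1% and 7.14%, beside 15% and 12.5% of all rows. Tespa1 was 5.68-fold, Cd27 3.81-fold and Tec 3.63-fold lower, and Pag1 was at least 1.78-fold higher.

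Markers of thymocyte stages and of other thymic cells moved on the same arrays, and their part in the receptor results was not tested. Their counts stand beside the shares of all rows. In wild type 17.9% of all rows were lower and 17% higher, and between the genotypes 21.2% and 19.4%. For TRAF6 null against the unirradiated array these shares were 15% and 12.5%. Of 14 markers of immature double-positive thymocytes 9 were tested. Irradiated wild type was lower in 5 (55.6%) and higher in 0 (median -1.90), led by Dntt, 20.9-fold lower. TRAF6 null was lower than irradiated wild type in 2 (22.2%, near the share of all rows) and higher in 0 (median -0.82). It was lower than the unirradiated array in 7 of these markers (77.8%, median -2.64). Their summed signal was 3810 to 5366 for TRAF6 null, 7526 to 9883 for irradiated wild type and 18827 unirradiated, and Ccr9 and Mylip were never above background. Bcl11b, a transcription factor of T lineage cells, was 3.40-fold lower in TRAF6 null than in irradiated wild type. By summed signal the double-positive markers were thus lowest in TRAF6 null, and the receptor chain rows in irradiated wild type. Of 11 tested markers of mature single-positive thymocytes, irradiated wild type was lower in 3 (27.3%) and higher in 4 (36.4%), with a median of 0.01. TRAF6 null was lower than irradiated wild type in 3 (27.3%, beside 21.2% of all rows) and higher in 0 (median -0.35). It was lower than the unirradiated array in 4 of these markers (36.4%) and higher in 1 (9.09%). Their summed signal was 8441 to 9653 for TRAF6 null, 9887 to 11462 for irradiated wild type and 12630 unirradiated, with S1pr1 and Ms4a4b never above background.

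Macrophage markers ran opposite to the receptor genes in wild type, with 9 of 11 (81.8%) higher and 0 lower (median 1.30), where 17% of all rows were higher. Between the genotypes 2 were higher and 2 lower, or 18.2% each, near the 19.4% and 21.2% of all rows. Their summed signal was 38489 to 48039 for TRAF6 null, 50996.5 to 51499 for irradiated wild type and 25220 unirradiated. Cd68 was 6.39-fold higher in irradiated than in unirradiated wild type. Of 9 tested markers of thymic epithelium, TRAF6 null was lower than irradiated wild type in 5 (55.6%) and higher in 1 (11.1%). The median was -2.31, with Aire at least 8.15-fold lower. Irradiated wild type was higher than unirradiated in 5 (55.6%) and lower in 1 (11.1%). The summed signal was 25043 to 25670 for TRAF6 null, 38999 to 42252 for irradiated wild type and 19177 unirradiated. Epcam and Foxn1 were never above background. Natural killer and innate lymphocytes can carry Cd247, Cd2, Lat and Lck, and of their 11 marker rows 5, Ncr1, Gzmb, Eomes, Fcer1g and Klrk1, were never above background. Their summed signal was 1987 to 2436 for TRAF6 null, 2118 to 2276 for irradiated wild type and 1563 unirradiated. Of 5 tested, 1 was higher and 1 lower between the genotypes (20% each, near the shares of all rows), and 2 and 2 in wild type (40% each).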

How the data were processed

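RNA was extracted from thymus with Trizol and labelled by the Illumina procedure, per the labels' protocols. Per the file headers, the deposited table gives for each row and array a linear signal intensity, its bead standard error, a bead number and a detection p-value. It has 1 row per gene symbol, and detection p-values that fall between the steps its controls allow, so probes appear to have been averaged by the authors before deposit; how many per row is not given in the sources used here. The authors' series matrix holds the same intensity values times 1 constant per array. Scanner software is not given in the sources used here. The human arrays of the series were not used.

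Signals were background-corrected with normexp (offset 16), quantile-normalized and taken to log2 in limma 3.58.1 under R 4.3.3. The offset shrinks the folds of dim genes, yet the other background settings gave smaller ones for Ptprc, Ptcra, Grap2 and Prkcq in wild type. For Ptcra the wild-type log2 difference of -1.72 became -1.23 with offset 50, -0.86 with no background correction and -0.21 with limma's own inference. Negative-control mean and SD were estimated from rows whose detection p lay on the grid of 936 controls, between 0.02 and 0.98. Testing used lmFit and eBayes over the 5 arrays, with 1 coefficient for each group (2 residual and 2.96 prior degrees of freedom), two-sided, for rows that any array detected (p under 0.01). Above background means a signal past the negative controls' 99th percentile, 124.9 to 130.3. Where no array of a group reached it, only "at least N-fold" is given. Scripts were tested on simulated data.

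The members and all gene lists were chosen with earlier results of these data known. Row names were updated through RefSeq's GRCm38.p6 gene table. Each member is accounted for, with values for members that passed and for the CD3, zeta, CD4 and CD8 chains, and up to 4 members per list with the largest differences that passed. Alternatives changed the background correction, normalization, source table, detection filter, offset, arrays in the fit and replicates.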

Additional observations from a re-analysis of the deposited data

How the results depend on the processing

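Each called difference of the 27 genes kept its sign under the alternatives run, but the number of calls depended on the fit. Main counts were 3 lower and 3 higher of 27 between the genotypes (5313 rows), 13 lower in wild type (4567 rows) and 13 lower for TRAF6 null against unirradiated wild type (3606 rows), all by limma. With limma's own inference of the negative controls the genotype count was 1 lower with 2971 rows, wild type had 2875 rows, and TRAF6 null against unirradiated 8 lower with 1910 rows. Median scaling gave 5 lower between the genotypes and the authors' series matrix 8. Detection on all 5 arrays (18 genes) gave 1 lower between the genotypes with 3435 rows, 8 lower for TRAF6 null against unirradiated with 2321 rows, and 10 lower in wild type. With no detection filter, 2 were higher for TRAF6 null against unirradiated. Only the arrays of the 2 groups compared gave 20 lower in wild type, and 6 lower with 666 rows for TRAF6 null against unirradiated. Leaving out 1 array gave 0 to 9 lower, 0 to 6 higher and 462 to 6246 rows between the genotypes, 0 to 21 lower and 0 to 6806 rows in wild type, and 5 to 21 lower and 711 to 5271 rows for TRAF6 null against unirradiated. Fewer samples or fewer rows enter those fits, and otherwise the cause was not tested.

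Same-numbered irradiated arrays share only a number: their deviations from the group means correlated at 0.03 over 2 pairs. With replicate number as a block, 4 were lower and 5 higher between the genotypes, with 5230 rows. The receptor chain rows, whose alternatives were chosen after seeing the data, gave 3, 11 and 4 calls with the own inference, in place of 8, 18 and 12.

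The scaling also moved the split of all calls. Between the genotypes it was 2538 higher and 2775 lower, 2027 and 3578 with median scaling and 1275 and 4686 on the series matrix, where the median of all rows shifted to -0.16 and -0.25. In wild type it was 2230 and 2337, 1138 and 1737 with the own inference, and 3600 and 1600 on the matrix (median 0.25). For TRAF6 null against unirradiated it was 1641 and 1965, and 664 and 1246 with the own inference, 1062 and 1978 on the matrix. The number of arrays and the dimness of Cd4, Ubash3a, Grap2, Prkcq, Ptprc and Ptcra limit these results.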

Other observations

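Other cell markers on the same arrays are given as values, from lists of 4 to 7 tested genes. Between the genotypes 19.4% of all rows were higher and 21.2% lower, and in wild type 17% and 17.9%. For TRAF6 null against the unirradiated array these shares were 12.5% and 15%. Fibroblast and adipocyte markers were higher in TRAF6 null than in irradiated wild type in 4 of 4 tested genes (median 1.96, limma), with the matrix protein gene Lum 12.7-fold and the adipocyte hormone gene Adipoq 4.53-fold higher. They were also higher than on the unirradiated array in 4 of 4 (median 2.18), and in wild type 1 was higher and 1 lower (25% each). Their summed signal was 8525 to 10275 for TRAF6 null, 2787 to 3084 for irradiated wild type and 2046 unirradiated. Of 6 tested erythroid markers 3 (50%) were higher in TRAF6 null than in irradiated wild type, led by Slc4a1, the red cell anion exchanger, 15.1-fold. In irradiated wild type 3 (50%) were lower than in unirradiated wild type. The summed erythroid signal was 49085 to 49227 for TRAF6 null, 31825 to 50529 for irradiated wild type and 42170 unirradiated. By this sum the irradiated groups overlapped. Of 7 neutrophil markers 3 (42.9%) were higher between the genotypes (median 1.31), with Ngp 5.71-fold, and 0 passed in wild type.

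Dendritic cell markers were lower in TRAF6 null than in irradiated wild type in 3 of 5 tested, or 60%, beside 21.2% of all rows. The median was -1.15, with Fscn1, a marker of migratory dendritic cells, 24.2-fold lower. In wild type 3 of the 5 were higher with irradiation, or 60%, beside 17% of all rows. Of 5 tested B cell markers 1, Cd79b, was 4.26-fold higher in TRAF6 null than in irradiated wild type and 3.14-fold lower in irradiated than in unirradiated wild type. In each comparison that is 20% of the 5, near the 19.4% and 17.9% of all rows called in those directions. Ms4a1, Cd22, Pax5, Jchain and Cr2 were never above background.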
